A study of Mus musculus with 6 samples.

Results

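The genes described here are p53 and a set of its target genes, read on the microarrays of a study of AML-12 cells, an immortalised mouse hepatocyte line, in which manganese superoxide dismutase (MnSOD, the product of Sod2) was silenced. The members were 31 genes given by name, and a gene was found where a probe set carried its symbol as the only annotated symbol. This held for 29 of the 31 members, out of 19938 such genes in all, and Trp53 itself and Bax are not analysed here. All 29 passed the background guide described below, and no filter on low values was applied. Both groups were stable lines made by retroviral transduction and puromycin selection. The 3 siMnSOD samples carried a short hairpin RNA against MnSOD, designed for a mild degree of silencing, and the 3 siScramble samples carried a scrambled hairpin that matches no gene. No sample was treated further. Each sample was read on 1 Affymetrix Mouse Gene 1.0 ST array, and the labels mention 3 batches of frozen cells. They number the samples as biological replicates but do not say whether the batches go back to separate transductions, clones or pools. A p-value therefore measures the spread between these samples, which may be technical.

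The transcription factor p53 is stabilised when DNA is damaged or the cell is under other stress, and it then raises a set of genes that stop the cell cycle, repair DNA or start cell death. Its level is held low by MDM2, which marks p53 for degradation and is itself a p53 target, and by the related protein MDM4. Through the cyclin-dependent kinase inhibitor p21 and the DREAM repressor complex, active p53 also lowers genes of DNA replication and mitosis. Several p53 targets have other inducers as well: Gadd45a, Sesn2, Pmaip1 and Tnfrsf10b are known to respond to the ATF4 and CHOP branch of the stress response, and Btg2, Plk2 and Plk3 to growth factors and other immediate signals.

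Promoter windows of 6 members that passed the test are shown first, because these genes moved in both directions. RefSeq windows on assembly GRCm38.p6, reaching from 250 bases before the annotated start to 50 bases after it, were held for 21 of the 29 members. They were searched on both strands for CCAAT (the NF-Y box), for TTTGAA and TTTAAA (forms of the cell cycle homology element of DREAM-regulated genes) and for the p53 half-site by its consensus. CCAAT on the opposite strand reads ATTGG, the half-site and TTTAAA equal their own reverse complement, and none of the matches printed here overlapped another motif. The first 275 bases of 6 windows follow, 5′ to 3′, with motif matches in capitals. They are those of the 2 members that rose and of the 4 members that fell with the smallest p among those with a window.
Gadd45a, chr6:67037383-67037657, minus strand: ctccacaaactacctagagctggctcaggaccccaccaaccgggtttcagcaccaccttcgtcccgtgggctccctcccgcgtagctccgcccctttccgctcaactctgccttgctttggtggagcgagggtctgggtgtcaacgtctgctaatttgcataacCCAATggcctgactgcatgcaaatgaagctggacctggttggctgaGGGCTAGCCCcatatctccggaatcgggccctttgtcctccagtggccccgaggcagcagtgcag
Btg2, chr1:134079131-134079405, minus strand: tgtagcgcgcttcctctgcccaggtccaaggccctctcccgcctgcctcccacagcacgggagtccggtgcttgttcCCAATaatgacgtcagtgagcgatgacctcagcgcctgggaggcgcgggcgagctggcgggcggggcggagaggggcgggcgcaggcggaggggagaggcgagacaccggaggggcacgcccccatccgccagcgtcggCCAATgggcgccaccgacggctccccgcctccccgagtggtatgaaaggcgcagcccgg
Mdm2, chr10:117710734-117711008, minus strand: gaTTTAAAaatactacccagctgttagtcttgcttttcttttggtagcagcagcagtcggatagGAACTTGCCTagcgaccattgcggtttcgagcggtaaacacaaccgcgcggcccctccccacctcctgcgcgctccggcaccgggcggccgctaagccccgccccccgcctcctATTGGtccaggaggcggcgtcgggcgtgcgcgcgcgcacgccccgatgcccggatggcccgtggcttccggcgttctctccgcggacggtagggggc
Eda2r, chrX:97377185-97377459, minus strand: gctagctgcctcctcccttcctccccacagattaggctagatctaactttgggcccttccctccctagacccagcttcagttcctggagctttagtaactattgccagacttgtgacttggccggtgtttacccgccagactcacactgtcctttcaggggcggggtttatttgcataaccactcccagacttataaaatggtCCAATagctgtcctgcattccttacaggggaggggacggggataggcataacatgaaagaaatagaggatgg
Ckap2, chr8:22185795-22186069, minus strand: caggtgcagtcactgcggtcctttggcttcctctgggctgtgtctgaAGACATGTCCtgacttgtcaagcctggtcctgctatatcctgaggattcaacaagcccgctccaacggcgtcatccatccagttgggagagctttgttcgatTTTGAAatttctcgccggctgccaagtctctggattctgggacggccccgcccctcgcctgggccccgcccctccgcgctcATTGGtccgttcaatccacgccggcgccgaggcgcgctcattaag
Gtse1, chr15:85859457-85859731, plus strand: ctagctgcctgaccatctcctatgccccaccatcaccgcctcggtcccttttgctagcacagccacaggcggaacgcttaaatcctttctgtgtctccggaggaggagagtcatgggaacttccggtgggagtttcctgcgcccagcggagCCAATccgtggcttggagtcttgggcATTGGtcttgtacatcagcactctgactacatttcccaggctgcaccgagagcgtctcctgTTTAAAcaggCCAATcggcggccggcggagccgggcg

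A p53 half-site lay in the first listed window of 8 of the 21 members, against 8.36% of all 32851 promoter windows. In the windows above it is GGGCTAGCCC in Gadd45a, GAACTTGCCT in Mdm2 and AGACATGTCC in Ckap2, and the windows of Btg2, Eda2r and Gtse1 hold none. The others were GAGCTTGCTC at −132 in Ppm1d, GGGCAAGCCT at −185 in Ccng1, GGGCTTGTCC at 11 in Aen, GGGCATGCCC at −10 in Ei24 and GAACTAGCCT at −231 in Polk, counted from the start site. CCAAT was present in 12 of the 21 windows, against 37.4% of all windows, TTTGAA in 3, against 17.9%, and TTTAAA in 4, against 13.2%. All 6 printed windows held CCAAT, with 3 matches in Gtse1 and 2 in Btg2. Sesn2 and Plk3 also fell and have windows that are not printed. That of Sesn2 held 2 CCAAT matches, and that of Plk3 held none of the motifs. TTTGAA occurred in the window of Ckap2, which rose. TTTAAA lay at −248 in Mdm2, which fell, and in Gtse1, which rose, at −12 and, beyond the printed stretch, at 31. A second start site of Gtse1 has its own window, which held 1 half-site. Members with a half-site thus included genes that fell (Gadd45a, Mdm2), a gene that rose (Ckap2) and genes that did not pass the test. A match is a run of letters and not a measured binding site.

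The array values are intensities on a linear scale, with a median over all probe sets between 26.8 and 33.6 per array, and fold changes are differences of mean log2 intensity, siMnSOD minus siScramble. The number of arrays limits the precision. In both groups the array numbered 3 stood apart: the correlation across genes of log2 values was at least 0.996 between replicates 1 and 2, between 0.977 and 0.988 between replicate 3 and its own group, and up to 0.985 between groups. Sod2, the targeted gene, read 98.8, 121 and 52.3 units in siMnSOD replicates 1, 2 and 3 and 248, 254 and 293 in siScramble, without overlap, a log2 fold change of −1.63 (SE 0.30, limma adjusted p = 0.037). An exact two-sided permutation test gave p = 0.1, the smallest that 3 against 3 arrays allow. That call was lost after centring arrays on their medians (adjusted p = 0.069), when all probe sets were tested (0.063) and without replicate 1 or 2 of either group (highest 0.13, without siScramble replicate 2). Background was judged from 1027 olfactory receptor genes, whose 95th percentile was 4.28 on the log2 scale. Of 16 measured hepatocyte markers 12 lay above it, with Krt8, Krt18, Hnf4a and the secreted products Trf and Apob among them. Fgb (4.45 in siMnSOD and 4.42 in siScramble), Apoa2 (4.53 and 4.74) and Apoa1 (4.73 and 4.73) were above it but close to it. The other 4, Alb, Ttr, Ahsg and the fetal marker Afp, lay below it in both groups. Markers of fibroblasts and stellate cells (summed intensity 207 to 253 units in siMnSOD, 217 to 248 in siScramble, 5 of 9 above background), leukocytes (341 to 381 and 322 to 351, 4 of 9) and endothelial cells (131 to 166 and 135 to 169, 2 of 8) had no member that passed the test, with Pecam1, Ptprc, Adgre1, Pdgfrb, Dcn and Lum below background. Others lay above it, such as Cd14 (7.69 in siMnSOD and 7.42 in siScramble on the log2 scale), Col1a1 (5.89 and 5.84) and Col1a2 (5.52 and 5.50). Without overlap, Cd14 was higher in siMnSOD (adjusted p = 0.36) and Lyz2, below background, was lower. Hepatocyte markers summed to 16054 to 18459 units in siMnSOD and 11446 to 15472 in siScramble, and 1 of 16, Hnf4a, rose (1.09, adjusted p = 0.013). Most of each sum came from Krt8 (mean 8460 units in siMnSOD and 5673 in siScramble) and Krt18 (5747 and 5388). Krt8 was higher in siMnSOD without overlap but did not pass (0.59, adjusted p = 0.12). Biliary and progenitor markers (3 of 5 above background) summed to 3902 to 4189 and 1912 to 3300 units, and 1 of 5, Sox9, fell (−0.86, adjusted p = 0.027). Krt7 (1.15, adjusted p = 0.38) and Krt19 (0.70, adjusted p = 0.19) did not pass, with every siMnSOD array above every siScramble array. Of all genes 2.17% passed as higher and 1.58% as lower. The part of the marker genes in the results was not tested. In bulk RNA, fewer cells of a kind and less RNA per cell cannot be told apart.

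More p53 members fell than rose in the siMnSOD cells. The members were chosen with earlier results of these data known, so the shares of all genes given beside them are no independent support. Of the 29 measured members, 9 fell, 2 rose and 18 did not pass an adjusted p of 0.05 in limma. Those that fell were Gadd45a, Trp53inp1, Plk3, Eda2r, Sesn2, Pvt1, Btg2, Pmaip1 and Mdm2, to between 25.7% and 60.9% of the siScramble level as ratios of geometric means. Those that rose were Gtse1 and Ckap2, by 2.96-fold and 2.69-fold. Over all genes, 3.75% passed in either direction, 1.58% lower and 2.17% higher. Higher calls thus made up 57.8% of all calls, and 72.3% when each array was centred on its median. Among the 12888 genes above background, as all members were, 2.44% were lower and 3.34% higher. The members had a median log2 fold change of −0.49, with 22 of 29 below 0, beside 0.01 for all genes. Of 23 further p53 targets measured, described below, none passed, and their median was −0.05.

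**Figure D1:**
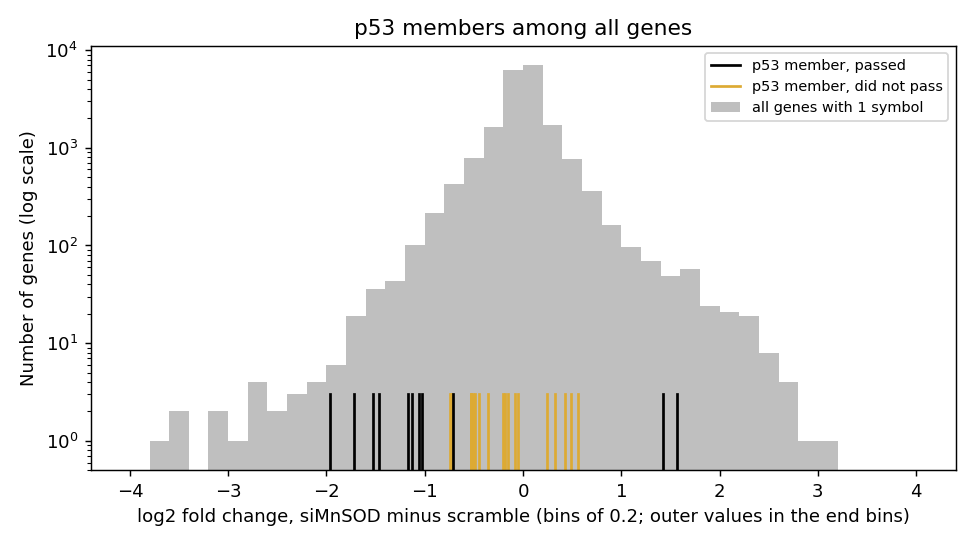
Histogram of log2 fold changes (siMnSOD minus siScramble, x axis, bins of 0.2) for all 19938 genes with 1 symbol, with the number of genes on a log y axis; short vertical ticks mark the 29 p53 members, black where they passed the test. The 9 members that fell lie between −1.96 and −0.71 and the 2 that rose at 1.43 and 1.57, while the middle 50% of all genes lies between −0.11 and 0.12.

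The groups did not overlap for 19 members: the 3 siMnSOD arrays all lay below the 3 siScramble arrays for 15 and above them for 4. Over all genes the shares were 9.73% below and 11.1% above, and among genes above background 13.6% and 15.5%. Within same-numbered samples, 18 members were lower in siMnSOD in each of the 3 numbers and 6 were higher, against 19.8% and 22.6% of all genes. With the replicate number as a block 8 members fell and 2 rose, where 3.12% of all genes were lower and 4.02% higher. Plk3 (adjusted p = 0.055) and Sesn2 (just over 0.05) then no longer passed, and Polk did (0.045). In replicates 1 and 2 alone, a choice made after seeing that replicate 3 stood apart, 12 members fell and 7 rose, at 9.69% and 11.8% of all genes. The count of members that fell was 9 with all arrays, 0 without siMnSOD replicate 1, 1 without siMnSOD replicate 2, 4 without siMnSOD replicate 3, 2 without siScramble replicate 1, 1 without siScramble replicate 2 and 12 without siScramble replicate 3. In those 6 settings 0.341%, 0.125%, 1.01%, 0.251%, 0.166% and 5.61% of all genes were lower, so the number of calls over all genes moved as well. The count of members that rose was 2 with all arrays and 2, 1, 2, 1, 1 and 4 in the same 6 settings, where 0.502%, 0.261%, 1.79%, 0.667%, 0.592% and 5.61% of all genes were higher.

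**Figure D2:**
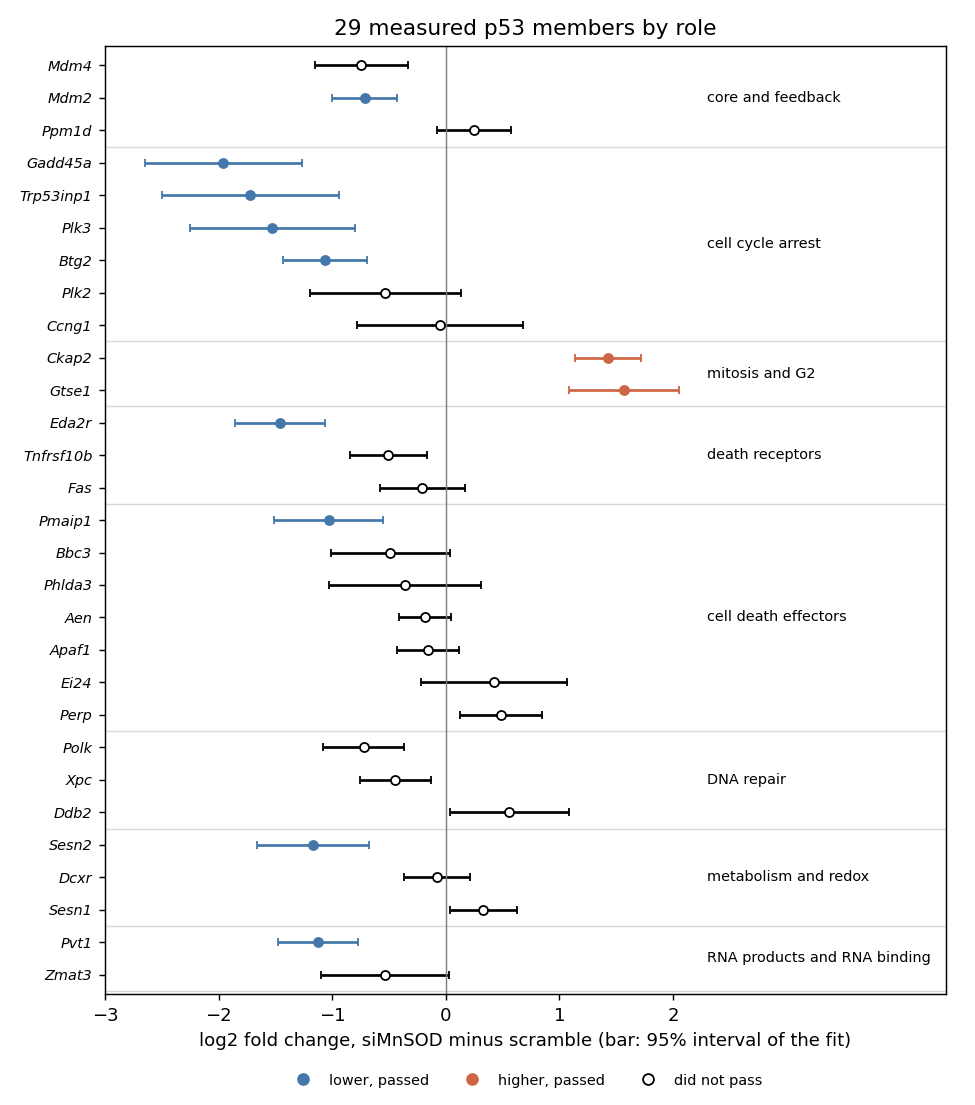
Log2 fold change (siMnSOD minus siScramble, x axis) of the 29 measured p53 members, grouped by role, with the 95% interval of the limma fit as bars (3 arrays per group); filled points passed an adjusted p of 0.05. The arrest genes Gadd45a (−1.96), Trp53inp1 and Plk3 lie furthest to the left, while Ccng1 of the same role lies near 0 (−0.06). Only Ckap2 and Gtse1 are filled to the right of 0.

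The negative regulators of p53 were led by Mdm2, the ubiquitin ligase and feedback target. It read 692, 630 and 662 intensity units in siMnSOD replicates 1, 2 and 3 and 981, 1058 and 1230 in siScramble. The siScramble arrays were all higher, and the siMnSOD arrays lay close together (661 ± 31.1 against 1089 ± 127, SD, n = 3). Mdm2 fell by 0.71 on the log2 scale (SE 0.12, adjusted p = 0.028). Its relative Mdm4, which binds p53 and blocks its transcriptional activity, read 278, 206 and 202 units in siMnSOD and 343, 449 and 354 in siScramble, again without overlap. The log2 difference of −0.74 (SE 0.17) was as large as that of Mdm2 but did not pass (adjusted p = 0.071, 95% interval −1.15 to −0.33), although it did after quantile normalization (0.0496) and without siScramble replicate 3 (0.0499). Ppm1d, the phosphatase WIP1 that switches p53 signalling off, had 260, 270 and 291 units in siMnSOD and 222, 202 and 273 in siScramble. These groups overlapped, and the difference of 0.24 (95% interval −0.08 to 0.57) did not pass. The Mdm2 call was lost without any 1 array other than siScramble replicate 3 (highest adjusted p 0.15, without siMnSOD replicate 2) and when all probe sets were tested (0.052).

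The largest falls were those of Gadd45a, Trp53inp1 and Plk3, which are among the genes that slow or stop the cell cycle. Of 6 members with this role 4 fell, where 1.58% of all genes were lower, and their median log2 fold change was −1.29. Gadd45a, a stress sensor that binds PCNA and inhibits the CDK1 kinase, read 395, 393 and 316 units in siMnSOD and 1807, 1817 and 881 in siScramble. The siScramble array numbered 3 held less than the other 2, yet was still above every siMnSOD array. The log2 fold change was −1.96 (SE 0.29, adjusted p = 0.019), or 25.7% of the control level. Btg2, an antiproliferative regulator of mRNA decay, read 144, 147 and 171 units against 372, 338 and 263, and fell by 1.06 (SE 0.16, adjusted p = 0.019). Plk3, a kinase that responds to stress, read 64.2, 53 and 71 units against 220, 241 and 109, and fell by 1.53 (SE 0.31, adjusted p = 0.048). In all 3 genes the smallest gap between same-numbered samples was in replicate 3.

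Trp53inp1, a nuclear and autophagy protein that favours arrest and cell death, differed in the other sense. It read 635, 437 and 562 units in siMnSOD and 1291, 1433 and 3007 in siScramble. Here siScramble replicate 3 was the highest array, and the gap was widest in that number (−1.02, −1.71 and −2.42 on the log2 scale in replicates 1, 2 and 3). The fit gave −1.72 (SE 0.33, adjusted p = 0.042). Plk2, a second stress-induced polo-like kinase, had 1408, 1412 and 1504 units in siMnSOD and 2595, 2692 and 1292 in siScramble. Its siScramble replicate 3 lay below all siMnSOD arrays, so the groups overlapped and the difference of −0.53 (95% interval −1.19 to 0.13) did not pass, whereas it was −0.88 (adjusted p = 0.0044) without that array. Ccng1, cyclin G1, a p53 target that binds a phosphatase subunit, read 2671, 2331 and 3645 units in siMnSOD and 2285, 2378 and 4681 in siScramble. Both arrays numbered 3 were the high ones in their group, and the log2 difference was −0.06 (95% interval −0.79 to 0.68).

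The calls of Gadd45a, Plk3 and Trp53inp1 were lost without any 1 array other than siScramble replicate 3 (highest adjusted p 0.10, 0.21 and 0.19), and that of Btg2 without replicate 1 or 2 of either group (0.11), each highest value being without siMnSOD replicate 2. Centring arrays on their medians ended those of Btg2 (0.056) and Plk3 (0.090), a pseudocount of 16 those of Plk3 (0.069) and Trp53inp1 (0.057), quantile normalization that of Trp53inp1 (0.051), and testing all probe sets those of Plk3 (0.080) and Trp53inp1 (0.071).

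**Figure D3:**
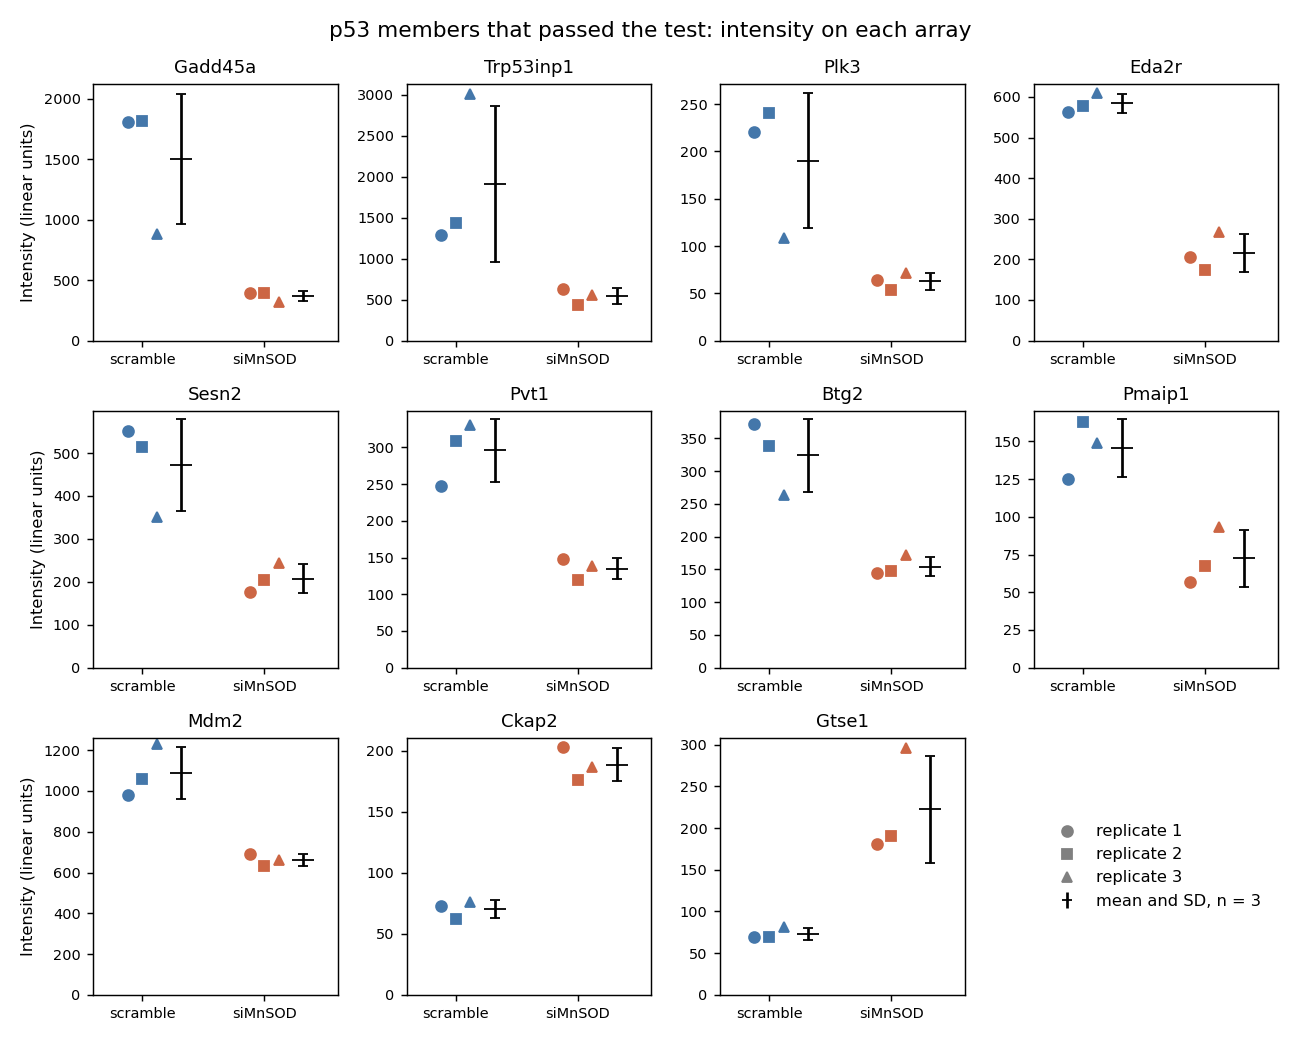
Intensity on each array (linear units, y axis from 0) of the 11 p53 members that passed the test, 1 panel per gene; circles, squares and triangles are replicates 1, 2 and 3, and the bars give mean and SD over 3 arrays. No siMnSOD point overlaps a siScramble point in any panel, and siScramble replicate 3 is the lowest control for Gadd45a, Plk3, Sesn2 and Btg2, the highest for Trp53inp1, Mdm2, Eda2r, Pvt1, Ckap2 and Gtse1, and between the others for Pmaip1.

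Among the death receptor genes, Eda2r stood out. It encodes a receptor for the A2 form of ectodysplasin and is a p53 target. Eda2r read 207, 173 and 267 units in siMnSOD and 564, 578 and 611 in siScramble, with little spread in the controls (584 ± 24, SD, n = 3). The log2 fold change was −1.46 (SE 0.17, adjusted p = 0.0090), the smallest adjusted p of any member that fell, and the call was lost without siMnSOD replicate 1 (0.052). Tnfrsf10b, the mouse receptor for the death ligand TRAIL, read 215, 238 and 194 units against 292, 272 and 358. Those groups did not overlap, but the difference of −0.51 (95% interval −0.85 to −0.17) did not pass (adjusted p = 0.12). Fas, the receptor for Fas ligand, read 104, 102 and 115 units against 101, 125 and 148 and overlapped, with a difference of −0.21 (95% interval −0.58 to 0.16).

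Of 7 measured effectors of cell death 1 fell, where 1.58% of all genes were lower. That was Pmaip1, which encodes NOXA, a BH3-only protein that neutralises MCL1. It read 57, 67.1 and 93.1 units in siMnSOD and 125, 163 and 149 in siScramble, without overlap, and fell by 1.03 (SE 0.20, adjusted p = 0.045). Bbc3, which encodes the BH3-only protein PUMA, read 84.6, 67.3 and 56.3 units against 105, 116 and 73.1. In Bbc3 siScramble replicate 3 lay among the siMnSOD values, and the difference of −0.49 (95% interval −1.01 to 0.03) did not pass. The Pmaip1 call was lost without replicate 1 or 2 of either group (highest adjusted p 0.21, without siMnSOD replicate 2), with a pseudocount of 16 (0.0503), with an intensity trend in the variance (0.0501) and when all probe sets were tested (0.076).

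The other effectors differed by less. Apaf1, the scaffold of the apoptosome, had a log2 difference of −0.16 (95% interval −0.43 to 0.12), and Aen, a nuclease induced by p53, of −0.18 (−0.41 to 0.05). Phlda3, which restrains AKT at the membrane, read 436, 487 and 625 units in siMnSOD and 526, 527 and 1015 in siScramble, with both arrays numbered 3 the highest of their group (difference −0.36, 95% interval −1.03 to 0.31). Perp, a desmosome and membrane protein, went the other way with 993, 1109 and 1153 units against 693, 706 and 948. The Perp groups did not overlap, and the difference of 0.48 (95% interval 0.12 to 0.85) had an adjusted p of 0.16, or 0.018 without siScramble replicate 3. Ei24, an endoplasmic reticulum protein, read 665, 714 and 1022 units against 480, 488 and 860, with both arrays numbered 3 high and a difference of 0.42 (95% interval −0.22 to 1.07).

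None of the 3 DNA repair members passed in limma, and all 3 had an unadjusted p under 0.05, 2 lower and 1 higher. Over all genes 8.06% were lower and 8.61% higher at that unadjusted threshold. Polk, the translesion DNA polymerase kappa, came closest, with 212, 169 and 193 units in siMnSOD and 277, 302 and 372 in siScramble. These groups did not overlap, and the log2 difference of −0.72 (SE 0.15) had an adjusted p of 0.052, falling to 0.045 with the replicate block or when genes below background were left out. Xpc, a damage sensor of nucleotide excision repair, read 155, 169 and 128 units against 203, 195 and 214, also without overlap (difference −0.44, 95% interval −0.75 to −0.13, adjusted p = 0.13). Ddb2, which recognises ultraviolet damage, read 97, 101 and 74 units in siMnSOD and 50.5, 54.5 and 83 in siScramble. Ddb2 was higher in siMnSOD in replicates 1 and 2 (0.94 and 0.89 on the log2 scale) and lower in replicate 3 (−0.17), and the difference of 0.56 (adjusted p = 0.27) was 0.78 without siScramble replicate 3 (0.031).

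Of the sestrin members, stress proteins that limit mTORC1 and support peroxide defence, only Sesn2 passed the test. Sesn2 read 175, 204 and 244 units in siMnSOD and 551, 514 and 351 in siScramble, with no overlap, and fell by 1.17 (SE 0.21, adjusted p = 0.033). Sesn1 read 62.5, 75.6 and 60 units against 51.6, 50.2 and 55.2, and every siMnSOD array was above every siScramble array (difference 0.33, 95% interval 0.04 to 0.62, adjusted p = 0.24). Dcxr, dicarbonyl and xylulose reductase, had 243, 261 and 311 units against 276, 292 and 288 (difference −0.08, 95% interval −0.37 to 0.21). The Sesn2 call was lost without any 1 array other than siScramble replicate 3 (highest adjusted p 0.16, without siMnSOD replicate 2), with arrays centred on their medians (0.075) and when all probe sets were tested (0.058).

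Of the RNA-level members, Pvt1 fell. It is a long noncoding RNA gene next to Myc with a p53 response. Its brighter probe set read 148, 120 and 138 units in siMnSOD and 247, 309 and 330 in siScramble, a log2 fold change of −1.13 (SE 0.15, adjusted p = 0.013). A second Pvt1 probe set had a mean of 2.72 on the log2 scale, under background, and with the mean of both probe sets the difference was −0.58 (adjusted p = 0.061). The call was also lost without siMnSOD replicate 1 (0.052), siMnSOD replicate 2 (0.080) or siScramble replicate 2 (0.078). Zmat3, an RNA-binding protein and direct p53 target, read 210, 246 and 266 units against 292, 283 and 505. The Zmat3 groups did not overlap, siScramble replicate 3 was far above the other 2, and the difference of −0.53 (95% interval −1.10 to 0.03) did not pass.

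The 2 members that rose, Ckap2 and Gtse1, are both mitotic genes. Ckap2, a spindle microtubule protein, read 203, 176 and 187 units in siMnSOD and 72.6, 61.9 and 76.2 in siScramble, a log2 fold change of 1.43 (SE 0.12, adjusted p = 0.0041). The 6 values fall into 2 tight groups, and Ckap2 was the 1 member that passed whichever array was left out. Gtse1, a G2 and S phase protein that binds p53 and moves it out of the nucleus, read 181, 190 and 297 units against 69.8, 69 and 81.5, a log2 fold change of 1.57 (SE 0.20, adjusted p = 0.013). Its siMnSOD replicate 3 was the highest array, and the call was lost without siMnSOD replicate 2 (0.065), siScramble replicate 1 (0.065) or siScramble replicate 2 (0.070). Mitotic genes known to be lowered by p53 through p21 and DREAM were also higher, but with another pattern over the replicates. That list was chosen with earlier results of these data known. All 17 measured genes of that list had positive log2 fold changes (median 1.78) and siMnSOD arrays that lay above all siScramble arrays. Over all genes 11.1% lay above in this way, and 15.5% among genes above background. Of these 17, 1 passed the test, the kinesin gene Kif20a, at 2.35 (SE 0.26, adjusted p = 0.0086, lost without siMnSOD replicate 2 at 0.065), and 3 passed with the replicate block. Over all genes 2.17% were called higher, and 4.02% with the replicate block. The list's median difference was 1.16, 1.18 and 3.09 in replicates 1, 2 and 3. In siScramble, replicate 3 lay below the mean of replicates 1 and 2 for every measured gene of the list. The log2 gap ran from −3.26 (Bub1) to −0.94 (Kif20a), and in siMnSOD the same comparison ran from −0.84 (Ttk) to 0.32 (Plk1). For Ckap2 and Gtse1, siScramble replicate 3 instead lay above the mean of replicates 1 and 2, by 0.18 and 0.23. Whether the share of dividing cells bears on Ckap2 and Gtse1 was not tested.

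The members also differed among themselves in how the third pair of samples behaved. The median difference over the 29 members was −0.31, −0.21 and −0.53 within replicates 1, 2 and 3, and 20, 22 and 21 of them were negative. For 25 members the difference in replicate 3 had the sign of the mean difference in replicates 1 and 2, and for 4 (Plk2, Ddb2, Ccng1 and Dcxr) it did not. Among the members that were lower in both, 8 had a smaller difference in replicate 3, with Plk3 at −1.78, −2.19 and −0.61, Sesn2 at −1.65, −1.33 and −0.53 and Btg2 at −1.37, −1.20 and −0.62. The other 11 had a larger one, with Trp53inp1 as given above, Zmat3 at −0.47, −0.20 and −0.93 and Phlda3 at −0.27, −0.11 and −0.70.

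**Figure D4:**
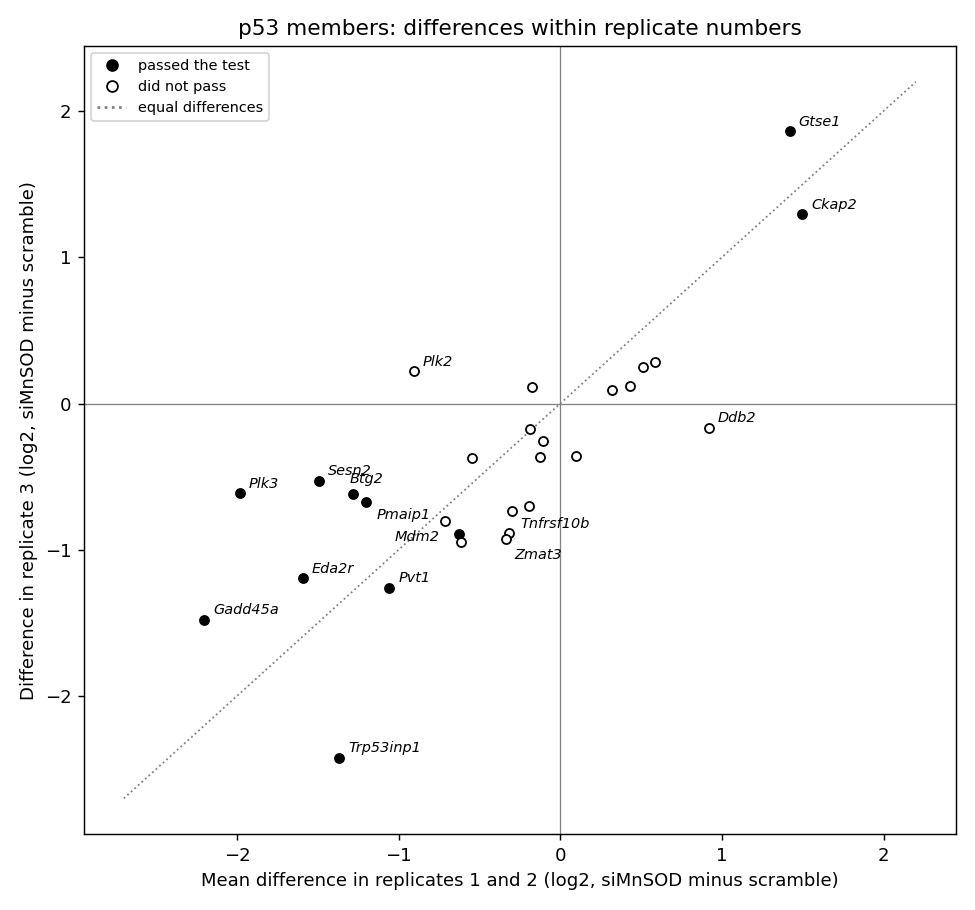
For each of the 29 measured p53 members, the mean log2 difference (siMnSOD minus siScramble) in replicates 1 and 2 (x axis) against the difference in replicate 3 (y axis); filled points passed the test, and the dotted line marks equal differences. Plk3, Sesn2 and Btg2 lie above the line with smaller falls in replicate 3, Trp53inp1 lies far below it at −2.42, and Plk2 and Ddb2 change sign.

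The level of replicate 3 in each group is given beside these differences. In siScramble, replicate 3 was above both other controls for 19 members, below both for 7 and between them for 3. The members furthest above were Trp53inp1 (1.14 on the log2 scale over the mean of replicates 1 and 2), Ccng1 (1.01), Phlda3 (0.95), Ei24 (0.83) and Zmat3 (0.81), and these 5 exceeded the 95th percentile of genes above background (0.78). Furthest below were Plk3 (−1.08), Gadd45a (−1.04) and Plk2 (−1.03), all under the 5th percentile (−0.95). In siMnSOD the same comparison gave 0.09, 0.55, 0.44, 0.57 and 0.22 for the first group and 0.28, −0.32 and 0.09 for the second. The labels do not tie a replicate number to a batch of cells, and the part of batch in these results was not tested.

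**Figure D5:**
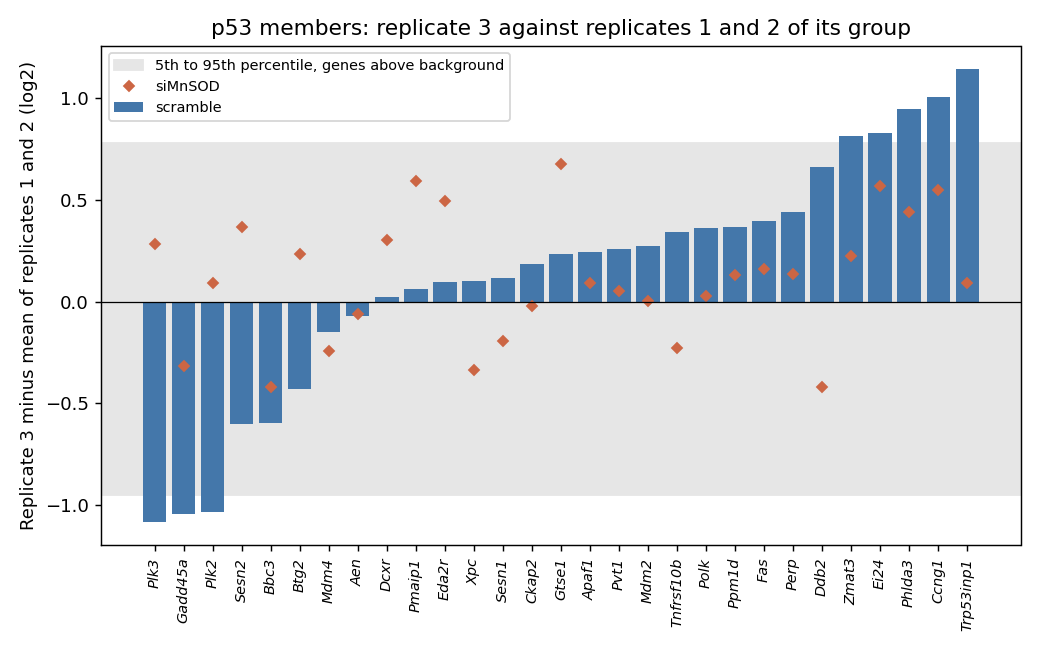
Log2 intensity of replicate 3 minus the mean of replicates 1 and 2 of its own group (y axis) for each of the 29 measured p53 members (x axis), as bars for siScramble and diamonds for siMnSOD; the grey band spans the 5th to 95th percentile of siScramble over 12888 genes above background. The bars run from −1.08 in Plk3 to 1.14 in Trp53inp1, whereas the diamonds lie between −0.42 and 0.68.

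Among the other genes of the pathway, Chek2 and Kif20a passed. Of 18 upstream regulators of p53 1 rose, where 2.17% of all genes were higher, and the list had a median log2 fold change of −0.05. The gene that rose encodes a kinase. That was Chek2, a checkpoint kinase that phosphorylates p53, with 282, 297 and 336 units in siMnSOD and 115, 118 and 166 in siScramble. The log2 fold change was 1.21 (SE 0.17, adjusted p = 0.016), and the call was lost without replicate 1 or 2 of either group (highest 0.093). Of the 18 regulators, 2 were higher and 3 lower in siMnSOD without overlap (all genes 11.1% and 9.73%). The second higher one was Chek1 (1.29, adjusted p = 0.38), with 288, 292 and 58 units in siScramble replicates 1, 2 and 3. Cdkn2a, whose ARF product blocks MDM2, had a difference of 0.34 (95% interval 0.01 to 0.68, adjusted p = 0.30), and the p53 relative Trp73 lay near background with 0.05 (95% interval −0.66 to 0.77). Of 31 further p53 targets 23 were measured and none passed in limma, at a median of −0.05, with 6 at an unadjusted p under 0.05, 5 lower and 1 higher (all genes 8.06% and 8.61%). The replicate block called 1 of these, the adenylate kinase gene Ak1 (−0.97, adjusted p = 0.023 with the block and 0.25 without). Cdkn1a, which encodes p21, is not analysed here. In replicates 1 and 2 alone 24 of the 58 measured genes of these lists and the DREAM list were higher and 7 lower, beside 11.8% and 9.69% of all genes. That count is not split by list, and all 17 measured genes of the DREAM list had positive log2 fold changes with all arrays.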

How the data were processed

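RNA of 6 samples was measured, 1 array each. The deposited values are linear intensities that the authors normalized. RMA is named in the submitters' processing notes and MAS5 in the labels' design text, so which of these made the values is unsettled. Versions: not given in the sources used here. Of 35557 probe sets, 21789 had 1 gene symbol in the platform annotation, 1621 several and 12147 none, and symbols were updated through Entrez identifiers (21698 matched, RefSeq table of GRCm38.p6, used for names and promoter sequences). Each gene was read from its brightest probe set, by mean log2 value. Probe sets with several symbols were tested but not named, which gave 21559 tested rows.

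The test was limma (version 3.58.1, R version 4.3.3) on log2 intensity, with lmFit, eBayes and a single group term. Benjamini-Hochberg adjustment covered every tested row. Called means an adjusted p under 0.05. No set test was used. The members and lists were chosen with earlier results of these data known. All members are named, and of other lists the called genes (at most 10 by smallest p) with Cdkn2a and Trp73. Scripts were tested on simulated data. Replicate numbers were taken to pair the samples. Deviations from the group means correlated at 0.38, 0.33 and 0.55 within numbers 1, 2 and 3. What a number stands for is not labelled, and replicates 1 and 2 correlated more with each other's number (0.45 and 0.36). These correlations therefore do not establish the pairing, on which the replicate block and the within-number differences rest. Alternatives were a replicate block, median centring, quantile normalization, the mean of probe sets, all probe sets, a background filter, a pseudocount of 16, an intensity trend, array weights and leaving out each array.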

Additional observations from a re-analysis of the deposited data

How the results depend on the processing

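With the replicate block 801 genes were higher and 623 lower (432 and 316 without it). Of the other p53 pathway genes 4 were then higher and 1 lower (2 and 0 without it). These other genes pool the upstream regulators, the further targets and the DREAM list. Median centring left 140 genes lower and Sod2 at −1.54, no longer passing. Testing all probe sets left 278 genes higher, 154 lower, 4 members lower and Sod2 at −1.63, no longer passing. Array weights gave 2486 genes higher and 2188 lower, 7 members higher and 16 lower, and 19 other pathway genes higher and 7 lower. Replicates 1 and 2 alone, a setting added after seeing the data, gave 2343 genes higher and 1932 lower, 7 members higher, and 24 other pathway genes higher and 7 lower. Leaving out 1 array gave 52 to 1119 genes higher and 25 to 1119 lower, 1 to 4 members higher and 0 to 12 lower, 0 to 15 other pathway genes higher and 0 to 1 lower, and Sod2 between −1.88 and −1.27. The sign changed for Ccng1 with centring (0.030), array weights (0.13), replicates 1 and 2 alone (0.10), without siMnSOD replicate 2 (0.09) and without siScramble replicate 3 (0.28; −0.24 to 0.28 over the arrays left out), and for Dcxr with centring (0.0070), all without a call. The causes were not tested. Over the 29 members and 16 other settings, 373 results kept sign and side of the threshold, 56 lost the call, 29 gained it and 6 changed sign. Only the 11 members called in the main fit could lose a call, and between 2 and 11 of them kept it in a given setting. Arrays this few, with unknown batch, limit all calls.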
